A study of Pan paniscus with 11 samples.

Results

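The inflammatory response of fibroblasts was read from 10 genes followed through 11 cultures of bonobo (Pan paniscus) fibroblasts: the cytokines IL6, IL1A and IL1B, the chemokines CXCL8, CXCL1 and CCL2, the adhesion molecule ICAM1, the pattern recognition protein PTX3, and the receptors IL1RL1 and TNFRSF11B. The genes were chosen with earlier results of these data known. Their probe sets, 15 of the 12625 on a human array, were taken by gene symbol alone from its probe annotation. Each culture was hybridised to 1 array. One culture was a second one of male line 1, harvested at 50% confluence, from an animal aged 4 years. The others were grown and harvested under the study's standard conditions, with 1 line per animal: the ages were 4, 2, 12, 17 and 19 years for male lines 1 to 5, and 9, 2, 4, 20 and 20 years for female lines 1 to 5. The labels call the animals normal and name no treatment; medium and serum are not given in them. Cultures of a line were not repeated within a state, so a p-value measures the spread between animals together with that between cultures.

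In fibroblasts, interleukin 1 and tumour necrosis factor act through receptors at the cell surface to free the transcription factor NF-kB from its inhibitors. NF-kB, with AP-1 and C/EBP factors, then switches on a shared set of genes: IL6, chemokines that draw in neutrophils (CXCL8, CXCL1) or monocytes (CCL2), ICAM1, which leukocytes grip when they leave the blood, and PTX3, a secreted protein that binds microbes and complement. IL1A and IL1B are the interleukin 1 ligands themselves. IL1RL1, also called ST2, is the receptor of interleukin 33 and is also made in a secreted form that mouse fibroblasts express when serum drives them into the cell cycle. TNFRSF11B, osteoprotegerin, is a secreted decoy that keeps the ligand RANKL from its receptor RANK.

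Intensities are on a linear scale, and values under 100 were set to 100, which is called the floor below. For such a value only an upper limit is known. In these bulk cultures, fewer expressing cells and less RNA per cell cannot be told apart. Levels of different probe sets cannot be compared with each other, so each gene is set against itself across cultures. Testing required a signal over the floor on 5 or more of the 11 arrays. That held for 8 of the 15 probe sets and 7 of the 10 genes, and for 7333 of 12558 probe sets on the array that are not controls. CXCL8, CXCL1 and IL1A did not reach it on any probe set.

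Each of the 10 fibroblast markers present on the array exceeded the floor in every culture. The macrophage and monocyte markers TYROBP and ITGAM were at the floor in every culture, as were the 3 mast cell markers on the array (KIT, CPA3 and HDC). The summed intensity of the 8 macrophage and monocyte markers was 1381 in the 50% confluence culture, 956 to 1519 in male lines and 979 to 1489 in female lines, where 800 would mean all at the floor. CD14 read 323 in male line 5, 279 in female line 4, 176 in male line 2 and 128 in male line 3, and was at the floor elsewhere. AIF1 reached 235 (female line 3; 177 in female line 4), CSF1R 228 (male line 2), PTPRC 166 (male line 4) and LYZ 108 (male line 5). CD68, a lysosomal protein gene that fibroblasts also express, was the only one of the 8 above the floor throughout. The T cell marker CD3E (118 to 290) and the keratin KRT10 (287 to 703) were also above the floor in all 11 cultures. The 6 keratinocyte markers summed to 1304 in the 50% confluence culture, 984 to 1538 in male lines and 884 to 1476 in female lines, where 600 is the floor. The 5 T and B cell markers summed to 631 in the 50% confluence culture, 672 to 752 in male lines and 588 to 680 in female lines, where 500 is the floor. The 6 endothelial markers summed to 647 in the 50% confluence culture, 600 to 642 in male lines and 600 to 664 in female lines, where 600 is the floor. On 2 arrays the quality controls differed from the rest. For the 50% confluence culture the 18S ribosomal RNA controls gave 1508 to 2611, for male line 4 they gave 146 to 313, and elsewhere at most 171, and male line 4 had the largest ratio of the 3' to the 5' ACTB control (2.27, against 0.669 to 1.44). Their part in the results was not tested, and values without male line 4 are given for some of the estimates that it moves.

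**Figure D1:**
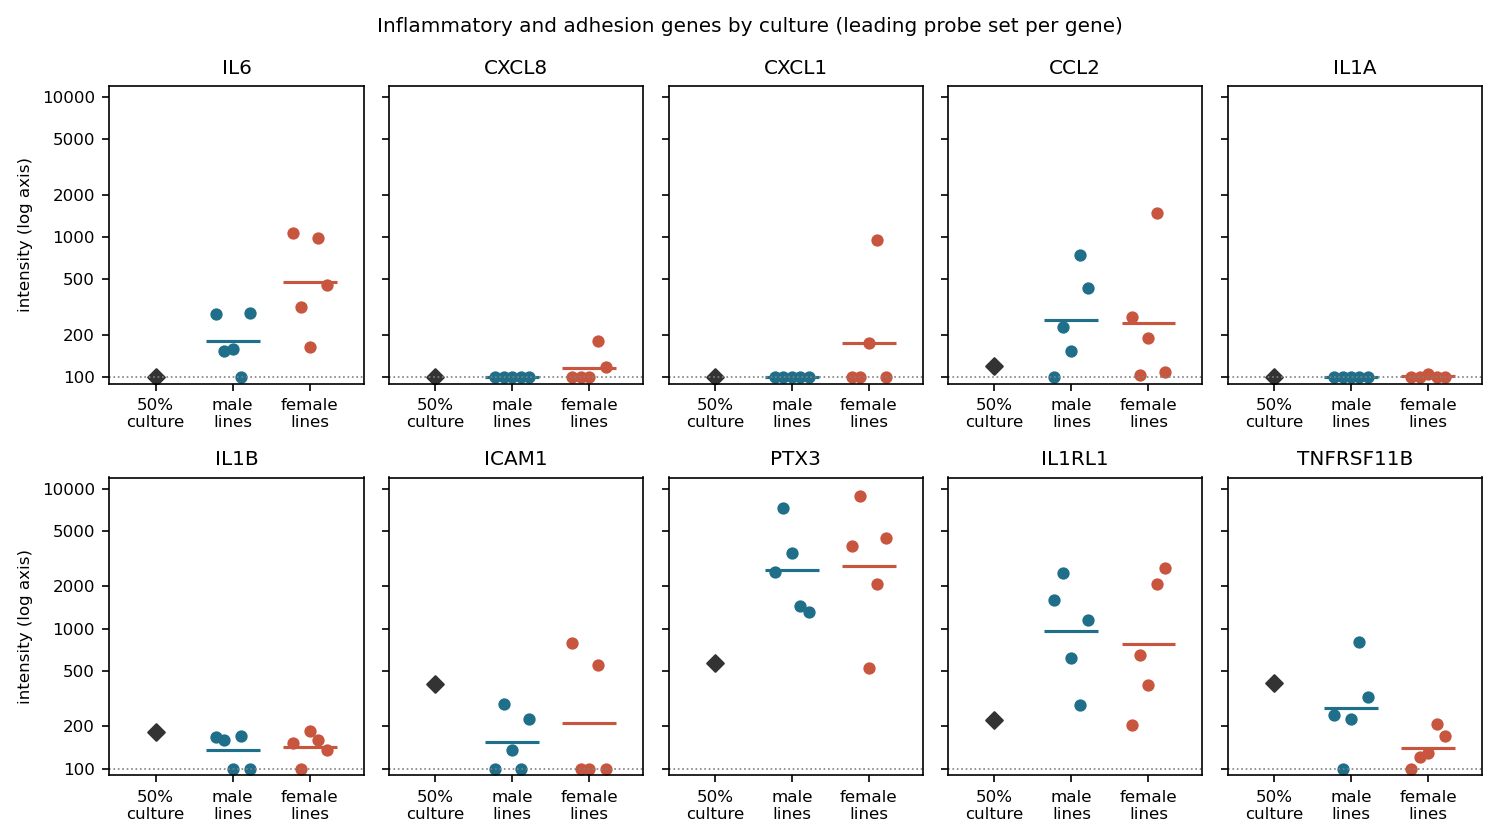
Intensity (log axis) of the leading probe set of each of the 10 genes in the 50% confluence culture (diamond), the 5 male lines and the 5 female lines (points in the order of their numbers, from left to right). Short lines mark the mean of the log2 values, and the dotted line is the floor of 100. CXCL8, CXCL1 and IL1A lie at the floor in nearly all cultures, and male and female lines overlap for every gene.

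Among the cytokines, IL6 gave a clear signal in most lines. It read 282, 153, 160, 100 and 287 in male lines 1 to 5, and 1071, 317, 165, 980 and 455 in female lines 1 to 5. Male lines averaged 196 ± 83.7 and female lines 598 ± 405 (SD, n = 5 each). Female lines 1 and 4 stood highest, and male line 4 was the only line at the floor. The ranges of the sexes overlapped, since female line 3 read less than male lines 1 and 5.

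The interleukin 1 ligands were at or close to the floor. IL1A had 1 value above it, 106 in female line 3. IL1B had 2 probe sets that disagreed on its highest line. The tested one read 169, 159, 100, 172 and 100 in male lines 1 to 5, and 152, 100, 187, 159 and 135 in female lines 1 to 5. The other was at the floor except in male line 3 (219), male line 4 (154) and female line 3 (116). Female line 3 and male line 4, the highest on the first, were thus above the floor on both, but male line 3, the highest on the second, was at the floor on the first. With a ceiling of 187 on the first and this partial agreement, no order of the lines for IL1B was established.

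The neutrophil chemokines were above the floor in few lines, and female line 4 led both. CXCL1 reached 960 in female line 4 and 176 in line 3, and was at the floor in the other female lines and all male lines. Both CXCL8 probe sets behaved alike: one gave 182 in female line 4 and 119 in line 5, the other 183 and 110, and all other lines were at the floor. CCL2, the monocyte chemokine, was measured in most lines. Its leading probe set read 100, 229, 154, 747 and 430 in male lines 1 to 5, and 270, 103, 189, 1496 and 108 in female lines 1 to 5. Female line 4 was again highest, followed by male line 4. The second tested CCL2 probe set gave the same leading pair in that order (671 and 302). The third CCL2 probe set was above the floor in female line 4 (152), female line 3 (119) and male line 3 (111).

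Female line 4 was the highest line for 3 of the 10 genes (CXCL8, CXCL1 and CCL2) and was second for IL6 and ICAM1. Over all 7078 genes with 1 highest line, it was the highest for 9.86%, against 21.3% for male line 4, which led the 10 lines in this count. Of 9 further chemokine genes with 1 highest line, 3 had it in female line 4, and as many had it in female line 1. Those of female line 4 were CXCL2, CXCL5 and CXCL6, which like CXCL8 and CXCL1 belong to the CXC family. CXCL6 read 1595 in female line 4 and was at the floor in the other 9 lines. CXCL2 read 167 there and was at the floor elsewhere. CXCL5 read 563 there, 195, 115 and 144 in male lines 2, 3 and 5, and was at the floor in the rest. IL32, a cytokine gene that NF-kB induces in human cells, read 455 in female line 4 and was at the floor in the other 9 lines. These 4 genes were named after their values were seen. The CXC family did not share this order throughout: CXCL12 read 104 in female line 4 and was highest in female line 1 (300). CXCL3, CXCL9, CXCL10 and CXCL11 were at the floor in all 11 cultures. The other line from an animal of 20 years, female line 5, had CXCL1, CXCL2, CXCL5, CXCL6 and IL32 at the floor. For CXCL8 it was the only other line above the floor (119 and 110 on the CXCL8 probe sets).

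**Figure D2:**
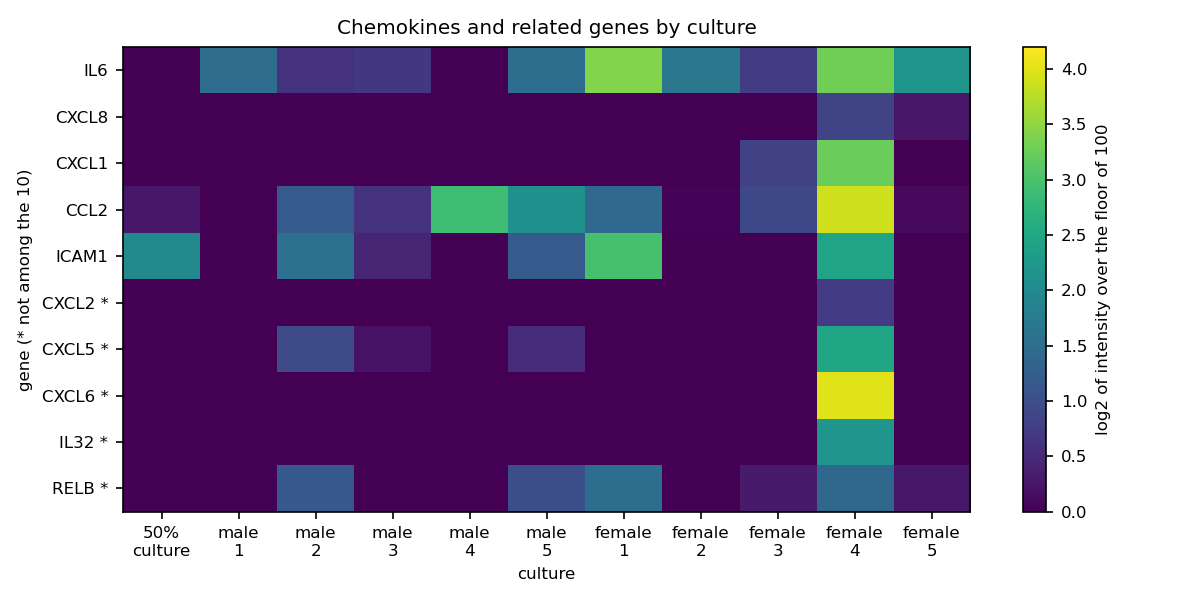
Colour shows log2 of intensity over the floor of 100 in each of the 11 cultures (columns) for 5 of the 10 genes and, marked with an asterisk, 5 further genes of the pathway. Female line 4 holds the highest CXCL1 (960), CCL2 (1496) and CXCL6 (1595) values, and most cells of the CXC chemokines are at the floor.

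ICAM1 separated the lines into those with signal and those without. It read 100, 288, 135, 100 and 227 in male lines 1 to 5, and 785, 100, 100, 548 and 100 in female lines 1 to 5. Female lines 1 and 4 were highest, the same pair as for IL6, while 3 female lines and 2 male lines were at the floor. PTX3 was well above the floor in every culture. It read 2538, 7217, 3439, 1450 and 1323 in male lines 1 to 5, and 3885, 8799, 525, 2095 and 4452 in female lines 1 to 5. The 2 lines from the animals aged 2 years, male line 2 and female line 2, had the highest values, and female line 3, from an animal aged 4 years, the lowest, 16.8-fold below the highest.

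The receptors differed as much between lines. IL1RL1 on its tested probe set read 1600, 2509, 613, 283 and 1153 in male lines 1 to 5, and 205, 643, 396, 2081 and 2691 in female lines 1 to 5. The highest and lowest lines, female lines 5 and 1, differed 13.1-fold. Its other probe set was at the floor in all standard lines except female line 3 (209). TNFRSF11B read 241, 100, 227, 800 and 326 in male lines 1 to 5, and 100, 122, 129, 209 and 170 in female lines 1 to 5. Male line 4 stood highest, and 4 of the 5 male lines read above every female line, but male line 2 was at the floor. RANKL (TNFSF11) was at the floor in all 11 cultures, and RANK (TNFRSF11A) did not exceed 142.

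Variation between lines was large for most of these genes. On the log2 scale, intensities over the 10 lines had an SD of 1.34 for IL1RL1, 1.30 for CCL2, 1.22 for PTX3, 1.14 for IL6, 1.13 for ICAM1, 0.92 for TNFRSF11B and 0.35 for IL1B. Over 5370 tested genes, each by its leading probe set, the median SD was 0.43 and 121 genes exceeded 1, among them 5 of the 7 tested here. IL1RL1 ranked 26th and CCL2 32nd of the 5370. Because the genes were chosen with earlier results of these data known, these ranks are a description and no independent evidence. Low values were set to the floor, so the SD of a gene with lines at the floor is a lower estimate. The SD of CCL2 was 0.99 without female line 4, and that of TNFRSF11B 0.61 without male line 4.

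The first comparison set male against female lines. None of the 8 tested probe sets of these genes differed with limma, at an adjusted p threshold of 0.05 over all 7333 probe sets, and 2 had an unadjusted p under 0.05, as did 171 of the 7333. Of all tested probe sets, 0.0273% were called. None of the 8 was free of overlap between the sexes either, against 0.286% of all tested probe sets. The largest estimate was that of IL6, with a log2 difference, male minus female, of -1.39 ± 0.47 (SE; 95% interval -2.40 to -0.38; limma, unadjusted p = 0.0107, adjusted p = 0.9999). The estimate for TNFRSF11B was 0.95 ± 0.36 (0.18 to 1.72; unadjusted p = 0.0196, adjusted p = 0.9999). Without male line 4, which had the lowest IL6 and the highest TNFRSF11B, these estimates were -1.08 and 0.63. The other 6 estimates lay between -0.45 (ICAM1) and 0.30 (IL1RL1, 0.84 without male line 4). The intervals of IL1RL1 (-1.16 to 1.75), PTX3 (-1.40 to 1.20) and the leading CCL2 probe set (-1.14 to 1.35) held differences of more than 2-fold in either direction. That of IL1B (-0.63 to 0.46) held none of that size, and those of ICAM1 (-1.70 to 0.80) and the second CCL2 probe set (-1.32 to 0.63) held them only toward lower values in male lines.

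The second comparison followed the age of the animal. With limma none of the 8 probe sets passed, though 2 were under 0.05 before adjustment. Of all 7333 tested probe sets, 0% were called, and 251 had an unadjusted p under 0.05. TNFRSF11B had an estimate of 0.70 ± 0.25 (SE) log2 per 10 years (95% interval 0.16 to 1.23; limma, unadjusted p = 0.0140, adjusted p = 0.9987), 0.51 without male line 4 and 0.49 without male line 2, where the interval included 0. With a floor of 200 in place of 100 it was 0.33 (-0.08 to 0.74). CCL2 had 0.99 ± 0.40 on its leading probe set (0.13 to 1.84; unadjusted p = 0.0272, adjusted p = 0.9987), 0.53 without female line 4 and 1.53 without female line 5, both from animals of 20 years (limma, adjusted p of 0.6897 or more in all alternatives). The second CCL2 probe set stood at 0.47 ± 0.31, and between 0.09 and 0.82 when any 1 line was left out. PTX3 had -0.42 ± 0.42, IL6 0.38 ± 0.33 and IL1RL1 0.29 ± 0.47 (0.60 without male line 4), each with an interval that included 0. The PTX3 slope rested on single lines: it was -0.93 (-1.41 to -0.45) without female line 3, which has the lowest value, and -0.08 without female line 2, which has the highest.

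**Figure D3:**
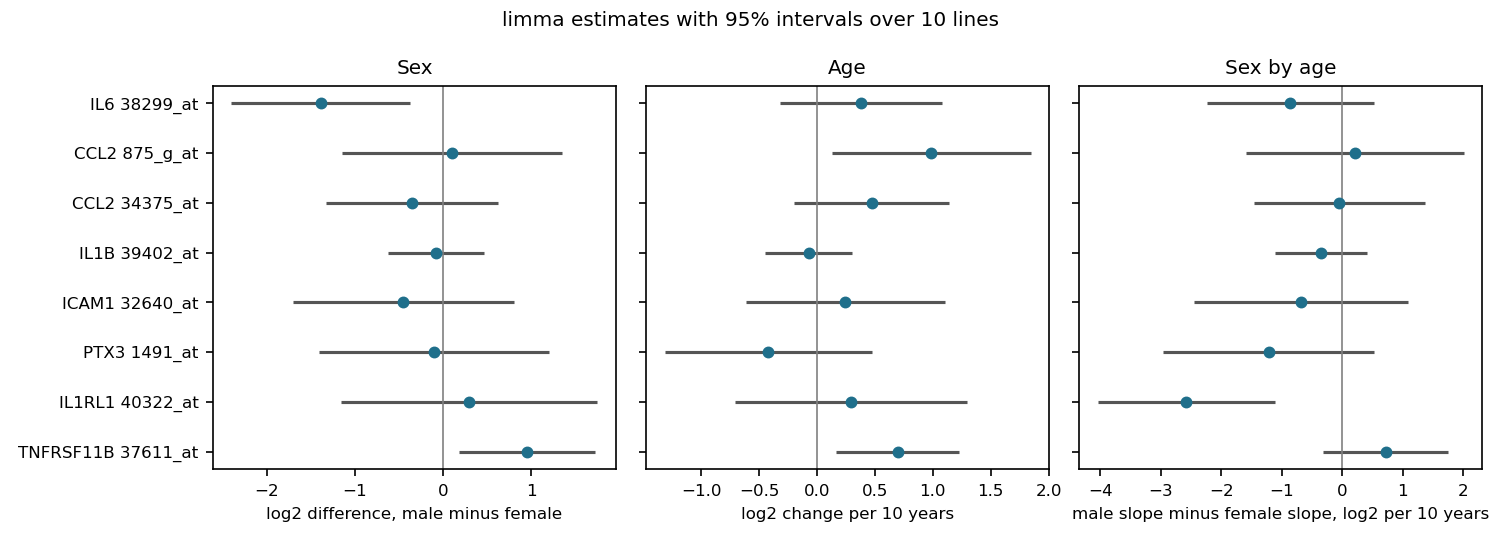
limma estimates (points) with 95% intervals (lines) for the 8 tested probe sets over the 10 standard lines: the log2 difference male minus female, the log2 change per 10 years of age, and the male minus the female age slope. None passed at the adjusted threshold. The intervals that exclude 0 are those of IL6 and TNFRSF11B for sex, the leading CCL2 probe set and TNFRSF11B for age, and IL1RL1 for sex by age.

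The third comparison asked whether the age slope differed between the sexes, and IL1RL1 had the largest estimate of the 8 probe sets. In male lines, in order of age from 2 to 19 years, IL1RL1 read 2509, 1600, 613, 283 and 1153. In female lines it read 643, 396 and 205 at 2, 4 and 9 years, and 2081 and 2691 at 20 years. Taken as male less female, the difference in slope came to -2.58 ± 0.68 (SE) log2 per 10 years (95% interval -4.04 to -1.11; limma, unadjusted p = 0.00211). It did not pass over all tested probe sets (adjusted p = 0.949), and the estimate stayed between -3.43 and -2.14 when any 1 line was left out. None of the 8 probe sets passed, and 1 of 8 had an unadjusted p under 0.05, as did 355 of the 7333. Of all tested probe sets, 0.0136% were called, which is 1 probe set of MMP1, interstitial collagenase. MMP1 had an estimate of -4.53 ± 0.63 in the same fit (limma, adjusted p = 0.0458). That call was kept in 1 of 10 fits with a line left out, the one without male line 3, and in 3 of 8 other alternatives, with estimates of -4.89 to -3.96 over all of them. Its values split the lines as those of IL1RL1 partly did: MMP1 read 382 and 778 in male lines 4 and 5, against 7243 to 8128 in male lines 1 to 3, and 12032 and 8220 in female lines 4 and 5, against 602 to 1356 in female lines 1 to 3. IL1RL1 in male line 3 (613) was below male line 5 (1153), unlike MMP1. Only 2 female lines are older than 9 years and both are from animals of 20 years, so the female slope rests on that pair.

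**Figure D4:**
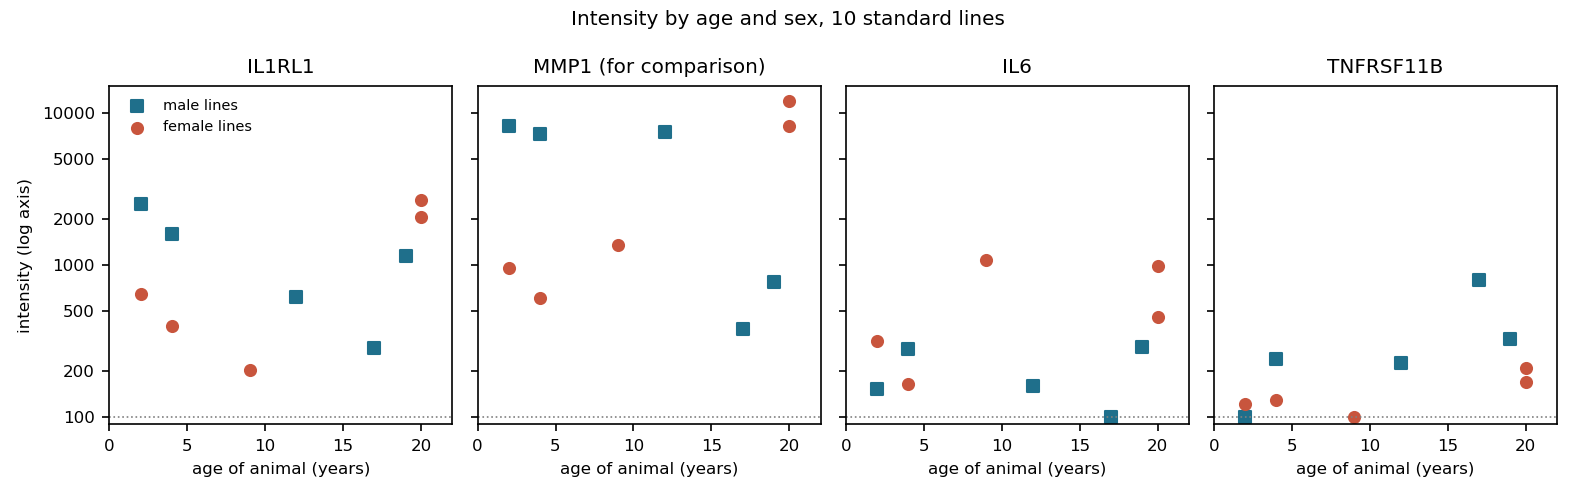
Intensity (log axis) of IL1RL1, MMP1, IL6 and TNFRSF11B against the age of the animal in years, for 5 male lines (squares) and 5 female lines (circles); the dotted line is the floor. IL1RL1 reads 2081 and 2691 in the female lines of 20 years and 205 to 643 in the younger female lines, while the male lines of 2 and 4 years read 2509 and 1600.

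Whether the genes moved together across the 10 lines was examined for the 21 pairs of the 7 tested genes. No pair passed after adjustment over the 21 (permutation test, 100000 resamples, two-sided), and 1 had an unadjusted p under 0.05. IL6 and ICAM1 had the largest Pearson r, 0.69 (permutation p = 0.0305, adjusted p = 0.641), with a Spearman rho of 0.38 (p = 0.279, adjusted p = 0.817). Without female lines 1 and 4, the lines farthest from the IL6 median, r was -0.15, so the relation rested on those lines. CCL2 and ICAM1 had r = 0.54 and rho = 0.59 (permutation p = 0.105 and 0.0805, adjusted p = 0.817 for both), with r = 0.69 without male line 4 and female line 4. PTX3 and TNFRSF11B had r = -0.43 and rho = -0.61 (permutation p = 0.217 and 0.0649, adjusted p = 0.817 for both), with r = -0.83 without female lines 2 and 3.

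For each tested gene, the genes of most similar profile over the 10 lines were listed from 4333 genes, as a description without a test. ICAM1 was closest to RELB, a subunit of NF-kB (Pearson r = 0.95), then to ETHE1, a mitochondrial sulfur dioxygenase gene (0.93), and C1S, a complement protease gene (0.92). RELB read 222 and 201 in male lines 2 and 5 and was at the floor in male lines 1, 3 and 4. In female lines it read 285 and 263 in lines 1 and 4, 124 and 121 in lines 3 and 5, and was at the floor in line 2. IL1RL1 was closest to TNC, the matrix protein tenascin-C (0.93), SLC39A7, a zinc transporter gene (0.93), and GSTO1, a glutathione transferase gene (0.93). TNC had 340 in female line 1 and 478 in line 3, where IL1RL1 was also low, and 6482 and 5309 in female lines 4 and 5. IL6 was closest to NEU1 (0.85), HLA-G (0.83) and GYS1 (0.83), and PTX3 to TRIP11 (0.90), ZFTRAF1 (0.89) and CHMP2B (0.85). CCL2 was closest to PLCG2 (0.90), GLE1 (0.87) and DRD2 (0.86), and TNFRSF11B to SLC25A17 (0.89), SP110 (0.88) and PPP1CB (0.88). All 3 partners of TNFRSF11B were highest in male line 4, as TNFRSF11B was. IL1B was closest to NR3C2 (0.95), LTK (0.94) and AANAT (0.86). Both IL1B and NR3C2 were at the floor in male lines 3 and 5 and female line 2, and at most 187 and 184 elsewhere. The part of these shared floor values in r was not tested. GLE1, SP110 and SLC25A17 were also at the floor in some lines, and none of them exceeded 258.

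The wider pathway was read from a list of 107 further genes, of which 95 were on the array and 56 were tested. By sex, limma called 0 of 56, while 4 were under 0.05 before adjustment, against 171 of all 7333 tested. These were TRAF1, an adaptor of the tumour necrosis factor receptors (-0.71 ± 0.25, SE), ZFP36, which destabilises cytokine mRNAs (0.65 ± 0.24), the adhesion molecule VCAM1 (1.26 ± 0.49) and PTGS2, the inducible prostaglandin synthase (1.29 ± 0.51). VCAM1 was highest in male line 4 (1128), without which its estimate was 0.75. By age, limma called 0 of 56 as well, and the 4 under 0.05 before adjustment, against 251 of all 7333, were CXCL12 (-0.65 ± 0.19 per 10 years), a chemokine that fibroblasts make without stimulation, NFKBIA (0.39 ± 0.17), the main inhibitor of NF-kB, CXCR1 (-0.42 ± 0.18) and IRAK1 (0.31 ± 0.14). Median estimates over the 56 were 0.0049 for sex and 0.0126 per 10 years for age, where all tested probe sets gave 0.0032 and -0.0031. By sex and age the median was -0.11, with 21 estimates positive and 35 negative, where all tested probe sets gave 0.01. MMP1, as above, was the 1 gene of 56 that passed in this comparison, and 4 were under 0.05 before adjustment, against 355 of all 7333. The next were MMP3, stromelysin (-2.74 ± 0.83), PLAUR, the urokinase receptor (-1.19 ± 0.39), and PTGES (-1.58 ± 0.71), which did not pass.

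The array held 25 receptors and signal transducers of the list, of which 12 exceeded the floor in every culture and 3 in none. Of 18 NF-kB factors, inhibitors and related regulators, 9 were above it in all 11 and 1 at it in all 11. IL1R1, the signalling receptor of interleukin 1, read 540 in the 50% confluence culture, 682 to 1814 in male lines and 671 to 1750 in female lines. The tumour necrosis factor receptor TNFRSF1A read 2416 in the 50% confluence culture, 1971 to 2764 in male lines and 1578 to 3087 in female lines. The interleukin 6 signal transducer IL6ST was above the floor in all 11 cultures and the interleukin 6 receptor IL6R in 6 of them. NFKB1, RELA, NFKBIA, CHUK and IKBKG were above the floor in all 11, IKBKB and NFKBIB in 7, RELB in 6, REL in 5 and TRAF6 in 3. TLR2, TLR3 and LIFR were at the floor in all 11. IL33, the ligand of IL1RL1, was at the floor in all 11 cultures. Tumour necrosis factor itself (TNF) was above the floor in all 11: it read 291 in the 50% confluence culture, 233 to 422 in male lines and 322 to 444 in female lines. Of 17 cytokines of the list other than chemokines, 4 were above the floor in all 11 and 5 at it in all 11. These genes were picked for their place in the pathway, after the values were seen.

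Harvest state was compared within male line 1, with 1 culture for each state and therefore no replicate check. IL1RL1 read 223 at 50% confluence and 1600 in the standard culture, a log2 difference of -2.84, or 7.18-fold lower. PTX3 read 569 at 50% confluence and 2538 in the standard culture, a log2 difference of -2.16, or 4.46-fold lower. IL6 was at the floor at 50% confluence and read 282 in the standard culture, so it was at least 2.82-fold lower. ICAM1 differed in the opposite direction: it read 403 at 50% confluence and was at the floor in the standard culture, so it was at least 4.03-fold higher. TNFRSF11B read 412 at 50% confluence and 241 in the standard culture, 1.71-fold higher. IL1B differed little, with 182 at 50% confluence and 169 in the standard culture, and so did CCL2, with 121 at 50% confluence and the floor in the standard culture on its leading probe set. The second IL1RL1 probe set read 145 at 50% confluence and was at the floor in the standard culture, against the direction of the first. CXCL8, CXCL1 and IL1A were at the floor in both.

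Of the 4 probe sets of these genes above the floor in both cultures, 2 were over 2-fold lower at 50% confluence and 0 over 2-fold higher. Over the array, 4.75% were over 2-fold lower and 4.88% over 2-fold higher. With values at the floor counted at the floor, 3 of 9 were lower and 1 higher, where the array gave 5.43% lower and 5.88% higher. All these values of the 50% confluence culture lay inside the range of the 10 standard lines. Among the leading probe sets, only those of IL1RL1 and PTX3 had no standard line at the floor, so the others could not have fallen below that range. Of 45 pairs of lines, 7 differed at least as much as the 2 cultures for IL1RL1, 10 for PTX3 and 25 for TNFRSF11B. The median difference between lines was 1.54 for IL1RL1, 1.33 for PTX3 and 0.90 for TNFRSF11B on the log2 scale, so for IL1RL1 and PTX3 most pairs of lines were closer than the 2 cultures. For IL6 and ICAM1 the difference between the 2 cultures is only a bound, so no such count is given for them. TNFRSF11B was at the floor in male line 2 and female line 1, so some of its differences between lines are bounds too. Only 1 line read below the 50% confluence culture for IL1RL1 (female line 1, 205) and for PTX3 (female line 3, 525). The labels do not give the confluence of the standard culture, and the 50% confluence array had the strongest 18S signal, whose part in these differences was not tested.

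**Figure D5:**
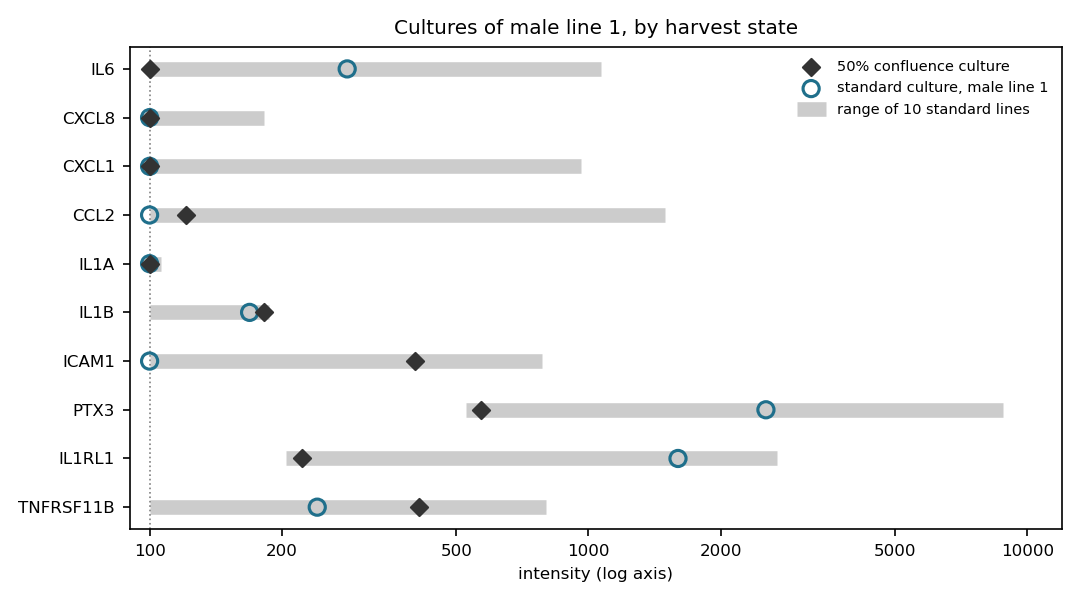
Intensity (log axis) of the leading probe set of each gene in the 50% confluence culture (diamond) and the standard culture (open circle) of male line 1, over the range of the 10 standard lines (grey bar); the dotted line is the floor. IL1RL1, PTX3 and IL6 are lower at 50% confluence and ICAM1 is higher (403, against the floor).

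The inducible genes of the wider list leaned the same way as IL1RL1, PTX3 and IL6. All 9 that were above the floor in both cultures were lower at 50% confluence, 5 of them more than 2-fold, and their median difference was -1.13 log2, against 0.01 over all probe sets above the floor in both. The list was drawn up with the lower MMP1 value known, so its count is no independent evidence. MMP1 read 390 at 50% confluence and 7243 in the standard culture (-4.22). PLAUR read 752 at 50% confluence and 2094 in the standard culture (-1.48). IER3, an early response gene, read 546 at 50% confluence and 1418 in the standard culture (-1.38). PTGS2 was at the floor at 50% confluence and read 911 in the standard culture. Of 12 NF-kB factors, inhibitors and related regulators, 9 were lower, with a median of -0.32 and ZFP36 lowest at -1.39. The 3 that were higher were NFKBIA (0.69), NFKB1 (0.55) and CEBPD (0.13). Over all 6147 probe sets above the floor in both, 3031 were lower and 3093 higher. Receptors and signal transducers had 9 of 13 higher, with a median of 0.18, led by the death receptor TNFRSF10B (1436 at 50% confluence and 648 in the standard culture, 1.15), the adaptor MYD88 (0.85), CD40 (0.76) and IL1RAP, the co-receptor of IL1R1 and IL1RL1 (0.73). RELB, the gene closest to ICAM1 across lines, was at the floor in both cultures of male line 1, whereas ICAM1 differed between them. ETHE1, the next closest, was higher at 50% confluence like ICAM1 (7658, against 3010 in the standard culture). C1S, which followed, was lower (2549, against 3970).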

How the data were processed

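Whole-number intensities were deposited for 12625 probe sets on 11 arrays, on a linear scale. The sources used here do not give how probes were summarised and arrays scaled. The deposited table holds no intensity below 100 in 9 arrays; male line 5 and the 50% confluence culture also hold values of 90. The array annotation is of 2016; 545 probe sets carry more than 1 symbol and were left unnamed. Of the 10 genes, 9 matched a bonobo gene table by name, and no coordinates or sequences are printed. The probes follow human sequences.

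Values were floored at 100 and log2 taken, 67 control probe sets left out. Sex with age, and sex by age, were fitted with limma 3.58.1 in R 4.3.3 (eBayes with an intensity trend) over 10 lines and 7333 probe sets, with Benjamini-Hochberg adjustment. A gene's leading probe set has the highest mean log2. Line numbers follow accession order within each sex and pair nothing. In simulated data, 43% of 100 probe sets changed by 1 log2 between the sexes and 94% of 100 changed by 2 were recovered, among 7333; for age, 78% and 98%; for sex by age, 12% and 60%. The planted noise was independent between probe sets, so these shares can overstate recovery. Recovery at the spread of the genes followed here was not tested. Of the 7 tested genes, 5 had a log2 SD over 1 between lines, where the median over 5370 genes was 0.43.

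All 10 genes were named with every probe set, with genes of a pathway list by lowest p (4 per comparison) or largest harvest difference, and the 3 nearest in profile with an SD of at least 0.3. The genes and lists were chosen with earlier results of these data known. Alternatives were other scalings, a floor of 200, a pseudocount of 50, other filters and variance models, and leaving out each line. Promoter sequences were not used here. The number of arrays limits the precision.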

Additional observations from a re-analysis of the deposited data

Results flagged for a closer look

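In 12 of 40 groups of values examined (male lines, female lines and all 10 lines, by probe set), 1 line stood apart from the rest by a gap test whose nominal rate is about 1 in 20. All 12 groups belong to probe sets on which most lines are at the floor, where any single value above it stands apart, so the nominal rate does not apply to them. Female line 4 stood apart for CXCL8 (182 among all 10 lines on 1 probe set; 183 among the female lines and among all 10 on the other), for CXCL1 (960, among the female lines and among all 10) and for the third CCL2 probe set (152, among all 10). Male line 3 stood apart among male lines on that CCL2 probe set (111). Female line 3 stood apart for IL1A (106, among the female lines and among all 10), for the second IL1B probe set (116, among the female lines) and for the second IL1RL1 probe set (209, among the female lines and among all 10). No tested probe set had a line standing apart.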

How the results depend on the processing

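No probe set of the 10 genes passed by sex, age or sex by age under any alternative run. Over all tested probe sets, the sex count of 2 was 1 with a floor of 200, with log2 of intensity + 50 and without a filter, 0 with probe sets above the floor in all 11 arrays, 3 without an intensity trend, with array weights and with sex alone, and 1 to 2 with a line left out. The sex by age count of 1 was 0 under quantile normalization, median centring, no filter, no intensity trend or array weights, and 0 to 1 with a line left out (0 in 9 of 10 fits). With no filter, probe sets constant over the lines were dropped.

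Small estimates changed sign. For the leading CCL2 probe set, the sex estimate was -0.0102 with a floor of 200, and sex by age was -0.0249 with that floor and -0.10 with array weights. With a line left out, sex estimates ran from -0.52 to 0.63 for that probe set, -0.75 to 0.0871 for the second CCL2 probe set, -0.85 to 0.0385 for ICAM1, -0.27 to 0.034 for IL1B, -0.20 to 0.84 for IL1RL1 and -0.88 to 0.30 for PTX3. Age slopes ran from -0.058 to 0.59 for ICAM1, -0.23 to 0.0165 for IL1B and -0.11 to 0.71 for IL1RL1, and sex by age from -0.93 to 1.26 and -0.82 to 0.77 for the CCL2 probe sets. The sign did not change for IL6 or TNFRSF11B in any of the 3 comparisons, nor for IL1RL1 by sex and age.

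For harvest state, 4 genes were over 2-fold apart, 2 with probe sets above the floor in all 11 arrays, which drops IL6 and ICAM1. With a floor of 200, IL6 stood at -0.50, and 317 probe sets on the array were over 2-fold apart, against 592. No paired analysis was possible because harvest state has a single pair of cultures and each standard line comes from a different animal.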
